A study of Mus musculus with 8 samples.

Results

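YAP and TAZ, the coactivators encoded by *Yap1* and *Wwtr1*, were followed together with the 4 TEAD transcription factors that carry them to DNA (*Tead1* to *Tead4*) and with 4 of their well-known target genes (*Cyr61*, *Ctgf*, *Ankrd1* and *Amotl2*). These 10 genes were taken by their symbols from a table of 18990 genes, and all 10 were found there. *Cyr61* and *Ctgf* are named *Ccn1* and *Ccn2* in newer annotations.

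In the Hippo pathway, the kinases MST and LATS phosphorylate YAP and TAZ, which keeps them in the cytoplasm or sends them to degradation. When the kinases are inactive, YAP and TAZ enter the nucleus, bind TEAD factors and switch on genes for matrix proteins, the cytoskeleton and growth. Fibroblasts that are spread on stiff plastic are known for nuclear YAP and TAZ, while cells in dense epithelial sheets or compact colonies usually hold them outside the nucleus. The mRNA of *Yap1* and *Wwtr1* therefore does not give the activity of the proteins, and target genes are the usual transcript readout.

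RNA-seq had been performed on mouse embryonic fibroblasts (MEFs) during reprogramming to induced pluripotent stem cells, in 4 groups of 2 biological replicates each. RNA of *siNcor1* cells and of *siOct4* cells was collected on day 3 and on day 6 of reprogramming. In every group, wild-type MEFs of the strain BL6 at passage 2 carried the doxycycline-inducible tet-STEMCCA cassette (*Oct4*, *Sox2*, *Klf4* and *c-Myc*) and the transactivator rtTA, both from lentiviruses. All cells were transfected with 40 nM of pooled siRNAs, against either *Ncor1* or *Oct4*, before reprogramming was started. The medium of all groups held 2 µg/mL doxycycline, 3 µM chiron, 0.25 µM of the TGF-β receptor inhibitor Alk5i, 50 µg/mL ascorbic acid and LIF. The cells were thus a mixed population under siRNA, and not a clonal knockout line. Libraries of a non-targeting control were not analysed here, so every difference below sets 1 knockdown against the other or day 6 against day 3.

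Levels are given as log2-cpm, the log2 of read counts scaled to library size (CPM), as deposited. Differences were tested with limma over 13866 genes whose mean over the 8 libraries reached 1 CPM, among them all 10 members, and a gene is called changed when its p-value, adjusted over all these genes by the Benjamini-Hochberg method, was under 0.05. Reads on genes numbered between 7735742 and 16445192 per library, with the lowest depth in replicate 2 of *siOct4* at day 3. At these depths 3 reads make between 0.174 and 0.380 CPM, while the lowest read number of any member was 31. A single non-coding gene, *Gm26917*, held 15.5% to 16.6% of all reads on day 3 and 20.3% to 29.1% on day 6. *Ncor1* was 1.67-fold lower in the *siNcor1* libraries than in the other libraries at day 3 (log2 difference of siOct4 minus siNcor1 0.74, SE 0.12, limma adjusted p = 0.0139), and at day 6 the difference was −0.042 (adjusted p = 0.815). *Pou5f1*, the gene of OCT4, was not detectably lower in the libraries labelled *siOct4* at day 3 (−0.076, limma adjusted p = 0.941) and was 3.42-fold higher there at day 6, where reads from the cassette and from the cell's own gene may both count, so those libraries are called by their label only. Fibroblast markers (*Col1a1*, *Col3a1*, *Dcn* and 7 others) were detected in every library, while 4 of 6 endothelial markers were in the table and summed to between 0.594 and 2.28 CPM.

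The members lie on 7 chromosomes of the mouse genome GRCm38. *Yap1* spans chr9:7931999-8004596 on the minus strand, and *Wwtr1* spans chr3:57455649-57575910 on the minus strand. *Tead1* (chr7:112679318-112906807) and *Tead2* (chr7:45215753-45233644) lie on the plus strand of chromosome 7, *Tead3* lies at chr17:28331671-28350817 and *Tead4* at chr6:128224288-128300823, both on the minus strand. The target genes are *Cyr61* at chr3:145646976-145649981 (minus strand), *Ctgf* at chr10:24595442-24598683 (plus strand), *Ankrd1* at chr19:36111961-36120099 (minus strand) and *Amotl2* at chr9:102716672-102733418 (plus strand). *Tead2* overlaps *Cd37* on the other strand, and *Yap1*, *Tead1* and *Ctgf* each overlap a non-coding transcript on the other strand. *Wwtr1* and *Tead4* each overlap a processed pseudogene on the other strand, and *Tead1* also overlaps a microRNA gene on its own strand. Whether the counting used strand is not given in the sources used here, so reads of such partners cannot be told apart.

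TEAD factors bind the letters GGAATG, read on either strand (CATTCC on the other). RefSeq promoter windows (GRCm38.p6), which run from 250 bases before to 50 bases after a transcript start, were found for 7 members, namely *Yap1*, *Wwtr1*, *Tead2*, *Tead3*, *Cyr61*, *Ankrd1* and *Amotl2*. At least 1 match was present in 6 of these 7, all but *Tead2*, and in 16.6% of all 27025 genes with such windows, or 14.7% of all 32851 windows. The 30 bases around matches are shown along each gene because they place the motif next to the genes whose levels are described below, with the motif in capitals.
Yap1: agtctgcaGGAATGtagcgacgcgcaggga
Wwtr1: aactcaaaGGAATGcagataggcgctcggc
Tead3: gccgggctCATTCCgtaCATTCCggccatc
Cyr61: ccaaccaaCATTCCtgagatgtttgagaat
Ankrd1, upper site: ctgccaaaGGAATGaccctctcacatttct
Ankrd1, lower site: ctaagtctGGAATGaaaattcacctgcctc
Amotl2: aactctcaCATTCCtggcatagcagccgcc

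These stretches lie at chr9:8004716-8004745 for *Yap1*, chr3:57576025-57576054 for *Wwtr1*, chr17:28350702-28350731 for *Tead3*, chr3:145650067-145650096 for *Cyr61*, chr19:36120033-36120062 and chr19:36119946-36119975 for *Ankrd1*, and chr9:102717731-102717760 for *Amotl2*. The first base of the match was 141 bases before the start in *Yap1*, 103 in *Cyr61* and 65 in *Amotl2*. *Ankrd1* held a pair of matches in the same orientation, at 210 and 123 bases before the start, and *Tead3* held 4 matches over its 3 windows, of which the pair shown lies 3 bases apart and the other two are not shown. In GENCODE M21 the stretches of *Tead3*, *Ankrd1* and *Amotl2* also fall within exons of transcripts that start further upstream, whereas those of *Yap1*, *Wwtr1* and *Cyr61* lie outside annotated exons. For *Cyr61*, the target with the highest level per length in all 4 groups, the whole stretch before the start (chr3:145649986-145650235) is given.
Cyr61 before the start: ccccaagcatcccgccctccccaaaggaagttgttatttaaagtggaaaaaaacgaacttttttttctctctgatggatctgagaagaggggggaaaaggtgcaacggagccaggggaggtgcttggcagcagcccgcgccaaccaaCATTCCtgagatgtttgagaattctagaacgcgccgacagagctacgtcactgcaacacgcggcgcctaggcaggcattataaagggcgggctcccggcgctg

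Between day 3 and day 6 the target genes fell in both knockdowns, and they fell further in the libraries labelled *siOct4*. At day 3, none of the 10 members was called different between *siOct4* and *siNcor1*, where 1.07% of all tested genes were called, and 4 members had an unadjusted p under 0.05, as did 1460 of 13866 genes. With limma voom on the read counts 1 member, *Ankrd1*, was called at day 3, as it was with a replicate block or with only the day 3 groups in the fit. At day 6, 8 of 10 members were lower in *siOct4* than in *siNcor1* and 0 were higher, against 18.6% of all tested genes called lower and 12.1% called higher. From day 3 to day 6, 6 members fell and 1 rose in *siNcor1* (20.9% of all tested genes fell and 13.8% rose), and 8 fell and 0 rose in *siOct4* (30.5% fell and 22.2% rose). The difference between the knockdowns itself changed from day 3 to day 6 in 7 members, all toward lower levels in *siOct4* (12.9% of all tested genes changed in that direction and 7.77% in the other). The median log2 difference of the 10 members was 0.28 at day 3 and −0.79 at day 6, beside −0.021 and −0.025 over all tested genes. These comparisons share libraries with each other and are not independent.

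Levels of cell type markers also differed between the groups. The summed level of the 10 fibroblast markers was between 6832 and 6854 CPM in *siNcor1* and between 9610 and 11292 CPM in *siOct4* at day 3, and between 4768 and 5172 CPM and between 2655 and 2831 CPM at day 6. The single markers did not all follow this sum. At day 3, 1 of the 10 was called higher in *siOct4* and 0 lower, where 1.07% of all tested genes were called. At day 6, 7 of the 10 were lower in *siOct4* and 0 higher, beside 18.6% and 12.1% of all tested genes. Over time 3 fell and 5 rose in *siNcor1* (20.9% and 13.8% of all tested genes), with a median log2 difference of 0.35. In *siOct4* 6 fell and 2 rose (30.5% and 22.2% of all tested genes), with a median of −0.81. The difference between the knockdowns changed from day 3 to day 6 toward lower levels in *siOct4* in 8 of the 10 fibroblast markers. It changed toward higher levels in 0 (12.9% and 7.77% of all tested genes). The median of this change was −1.24, beside −0.99 for the 10 members. The 10 epithelial markers (*Cdh1*, *Epcam*, *Krt8* and others) rose in sum over time, from between 90.3 and 92.4 CPM to between 727 and 767 CPM in *siNcor1* and from between 37.5 and 45.0 CPM to between 318 and 354 CPM in *siOct4*. In each knockdown 9 of the 10 were called higher at day 6 than at day 3 and 0 lower (13.8% of all tested genes rose in *siNcor1* and 22.2% in *siOct4*). At day 3, *Cldn6* had 3 reads or fewer in both knockdowns, as had *Cldn4* and *Grhl2* in *siOct4*. These genes passed the filter on the mean level only through day 6, which fixed their rise. Between the knockdowns, 5 were lower in *siOct4* at day 3 and 8 at day 6, and 0 were higher on either day. Of all tested genes, 1.07% were called at day 3, and 18.6% were lower at day 6. The 8 pluripotency markers (*Nanog*, *Esrrb*, *Sall4* and others) summed to between 7.61 and 7.95 CPM in *siNcor1* and between 1.42 and 3.67 CPM in *siOct4* at day 3, and to between 108 and 116 CPM and between 44.6 and 51.3 CPM at day 6. All 7 of them that were tested rose over time in both knockdowns, where 13.8% of all tested genes rose in *siNcor1* and 22.2% in *siOct4*. At day 3, however, 6 of the 8 had 3 reads or fewer in each knockdown, both libraries together. Those among the 7 tested passed the filter on the mean level only through day 6. Their rise was thus fixed by the filter and adds nothing to this comparison. At day 6, 4 of these 7 were lower in *siOct4* and 0 higher, beside 18.6% and 12.1% of all tested genes. Muscle markers, 5 of 8 of them in the table, summed to between 16.0 and 92.7 CPM over all libraries. Their part in the results was not tested, and in bulk RNA fewer cells that express a gene and less RNA per cell cannot be told apart.

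**Figure D1:**
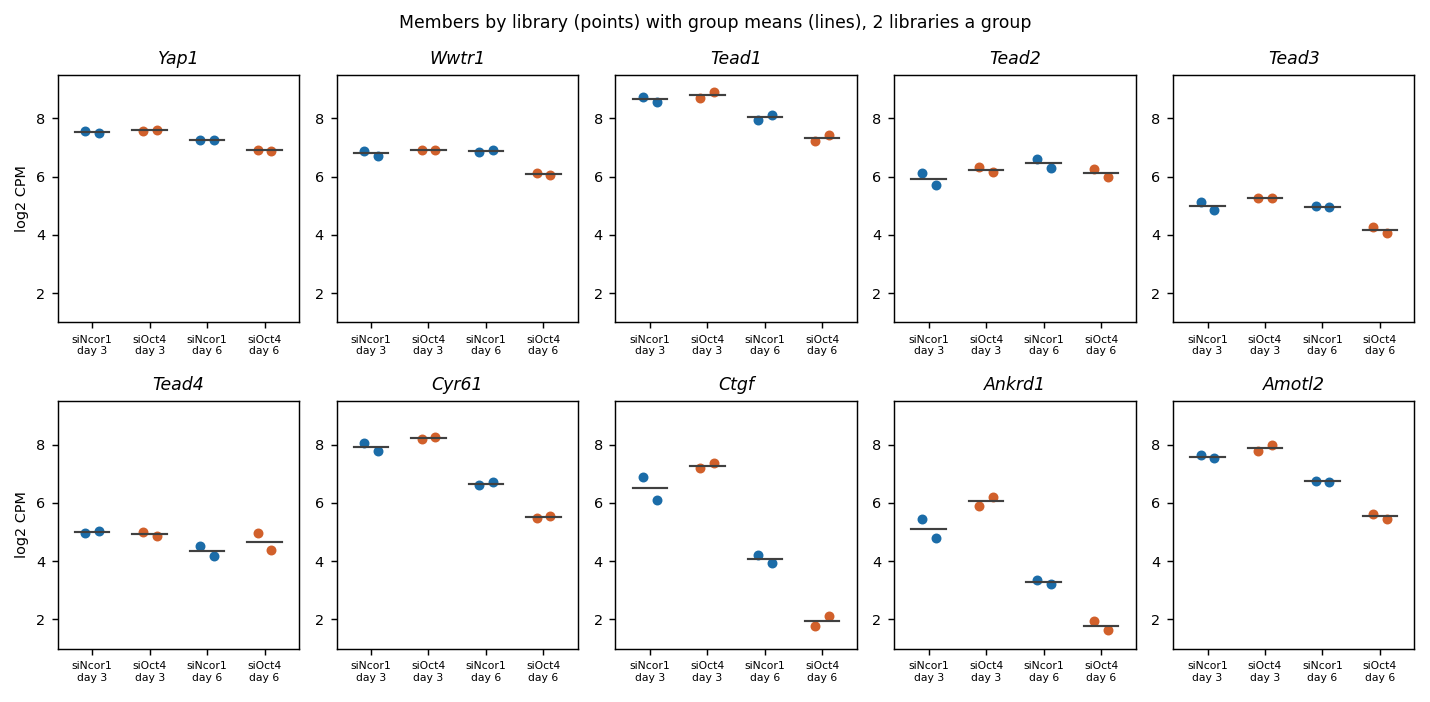
Level of each member in log2 CPM (y axis) in the 4 groups (x axis), with 1 point for each library and a line at the mean of the 2 libraries of a group, *siNcor1* in blue and *siOct4* in orange. The 4 target genes in the lower row drop from day 3 to day 6 in both knockdowns and are lowest in *siOct4* at day 6, with *Ctgf* at 1.77 and 2.13 there, while the cofactors and *Tead2* to *Tead4* cover narrower ranges.

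The coactivators *Yap1* and *Wwtr1* were expressed in every library, and both fell over time in *siOct4*. *Yap1* was at 7.55 and 7.51 log2-cpm in *siNcor1* and at 7.57 and 7.60 in *siOct4* at day 3, and at 7.25 and 7.26 in *siNcor1* and 6.92 and 6.89 in *siOct4* at day 6. The libraries labelled *siOct4* at day 6 were the lowest and did not overlap with any other group. Libraries did not overlap in 64.7% of all tested genes between the knockdowns at day 6, and in 74.8% over time in *siOct4*. *Wwtr1*, which encodes TAZ, was at 6.86 and 6.72 in *siNcor1* and at 6.91 and 6.90 in *siOct4* at day 3, and at 6.83 and 6.91 in *siNcor1* and 6.11 and 6.06 in *siOct4* at day 6. For *Wwtr1* 3 groups lay close together and only the *siOct4* libraries at day 6 stood lower.

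At day 6 *Wwtr1* was 1.72-fold lower in *siOct4* than in *siNcor1* (log2 difference −0.79, SE 0.11, limma adjusted p = 7.2e-04). *Yap1* was 1.28-fold lower (−0.35, SE 0.11, limma adjusted p = 0.0276). The call of *Yap1* was lost without replicate 1 or without replicate 2 of *siNcor1* at day 6, with median centring, without the variance trend and with only the day 6 groups in the fit, and its adjusted p over all alternatives lay between 0.0123 and 0.159. Over time in *siOct4*, *Wwtr1* fell by 0.82 (SE 0.11, limma adjusted p = 9.9e-05) and *Yap1* fell by 0.68 (SE 0.11, adjusted p = 2.6e-04) on the log2 scale. In *siNcor1* neither was called, with a log2 difference of 0.080 for *Wwtr1* (95% interval −0.16 to 0.32) and of −0.27 for *Yap1* (−0.50 to −0.036, limma adjusted p = 0.0698). The *Yap1* fall was called with only the *siNcor1* groups in the fit, and also without either replicate of *siOct4* at day 6. Over all alternatives its log2 difference stayed negative, between −0.29 and −0.10. The change over time differed between the knockdowns for *Wwtr1* (−0.90, SE 0.16, limma adjusted p = 0.00294) and was not called for *Yap1* (−0.41, SE 0.15, adjusted p = 0.0731). At day 3 the difference between the knockdowns was 0.060 for *Yap1* (95% interval −0.17 to 0.29) and 0.12 for *Wwtr1* (−0.13 to 0.36).

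Among the DNA-binding partners, *Tead1* and *Tead3* were lower in *siOct4* at day 6, whereas *Tead2* and *Tead4* were not called between the knockdowns on either day. *Tead1* was at 8.74 and 8.56 log2-cpm in *siNcor1* and 8.68 and 8.90 in *siOct4* at day 3, and at 7.94 and 8.12 in *siNcor1* and 7.22 and 7.43 in *siOct4* at day 6. The groups overlapped at day 3 and separated at day 6, with each day 6 library below each day 3 library. Most tested genes were likewise without overlap at day 6 (64.7%) and over time (73.1% in *siNcor1*, 74.8% in *siOct4*). *Tead3* was at 5.12 and 4.84 in *siNcor1* and 5.26 and 5.25 in *siOct4* at day 3, and at 4.997 and 4.942 in *siNcor1* and 4.28 and 4.07 in *siOct4* at day 6. As for *Wwtr1*, the *siOct4* libraries at day 6 were the ones that stood apart. *Tead2* was at 6.12 and 5.71 in *siNcor1* and 6.31 and 6.16 in *siOct4* at day 3, and at 6.61 and 6.30 in *siNcor1* and 6.25 and 6.00 in *siOct4* at day 6. *Tead4* was at 4.96 and 5.05 in *siNcor1* and 5.01 and 4.85 in *siOct4* at day 3, and at 4.52 and 4.17 in *siNcor1* and 4.95 and 4.38 in *siOct4* at day 6. The gap between replicates of *Tead4* was widest in *siOct4* at day 6, and its knockdown groups overlapped on both days.

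At day 6 *Tead3* was 1.74-fold lower in *siOct4* than in *siNcor1* (log2 difference −0.80, SE 0.14, limma adjusted p = 0.00239) and *Tead1* was 1.63-fold lower (−0.70, SE 0.14, adjusted p = 0.00329). Without *siNcor1* replicate 2 at day 6 the adjusted p of *Tead1* was 0.0527. The intervals at day 6 were −0.69 to 0.019 for *Tead2* and −0.098 to 0.74 for *Tead4*, and without *siOct4* replicate 2 the latter was called higher in *siOct4* (0.60, limma adjusted p = 0.0173). Over time in *siOct4*, *Tead1* fell by 1.46 (SE 0.14, limma adjusted p = 6.6e-06) and *Tead3* fell by 1.08 (SE 0.14, adjusted p = 8.5e-05) on the log2 scale. There *Tead2* (−0.12, 95% interval −0.47 to 0.24) and *Tead4* (−0.26, −0.68 to 0.16) were not called. The *Tead4* change rested on the library used, at −0.54 without *siOct4* day 6 replicate 1 and 0.027 without replicate 2. In *siNcor1*, *Tead1* fell by 0.62 (SE 0.14, limma adjusted p = 0.00468), *Tead4* fell by 0.65 (SE 0.19, adjusted p = 0.0199) and *Tead2* rose by 0.54 (SE 0.16, adjusted p = 0.0224), while *Tead3* moved by −0.010 (95% interval −0.32 to 0.30). Each of the calls in *siNcor1* was lost when certain libraries were left out, for *Tead1* without day 6 replicate 1, for *Tead2* without day 3 replicate 2 or day 6 replicate 1, and for *Tead4* without either day 3 replicate or day 6 replicate 2. Those of *Tead2* and *Tead4* were also lost without the variance trend. The change over time differed between the knockdowns for *Tead3* (−1.07, SE 0.20, limma adjusted p = 0.00451) and for *Tead1* (−0.84, SE 0.19, adjusted p = 0.0113), the latter not without replicate 2 of any of 3 groups (*siNcor1* at day 3, *siOct4* at day 3, *siNcor1* at day 6), with adjusted p up to 0.0709. For *Tead2* the same change was −0.66 (SE 0.23, limma adjusted p = 0.0622), which was called without *siNcor1* replicate 1 at day 3, without *siOct4* replicate 1 at day 6 and with totals without normalization factors. For *Tead4* it was 0.40 (SE 0.27, limma adjusted p = 0.320). It also rested on the library used, at 0.11 without *siOct4* day 6 replicate 1 and 0.68 without replicate 2.

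Per kilobase of exon, *Tead1* was the most abundant of the 4 TEAD genes at day 3, while at day 6 the libraries of *Tead1* and *Tead2* overlapped in *siNcor1*, and *Tead2* was above *Tead1* without overlap in *siOct4*. The share of *Tead1* in the summed TEAD level per length was 53.0% ± 0.56 in *siNcor1* and 52.2% ± 4.2 in *siOct4* at day 3 (SD, n = 2), and 40.3% ± 5.2 and 32.9% ± 5.9 at day 6. The share of *Tead2* was 22.6% and 25.2% at day 3 and 38.2% and 40.1% at day 6. *Tead3* held between 7.36% and 9.69% and *Tead4* between 11.8% and 19.6% of the sum in the group means. The sum itself was 59.7 and 52.2 CPM per kb in *siNcor1* and 61.4 and 63.7 in *siOct4* at day 3, and 49.5 and 46.5 in *siNcor1* and 38.3 and 34.2 in *siOct4* at day 6, so the *siOct4* libraries at day 6 were lowest. The summed level per length of *Yap1* and *Wwtr1* was 43.1 CPM per kb in *siNcor1* and 45.8 in *siOct4* at day 3, and 41.0 and 27.1 at day 6 (means of 2 libraries). These shares and sums were not tested.

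**Figure D2:**
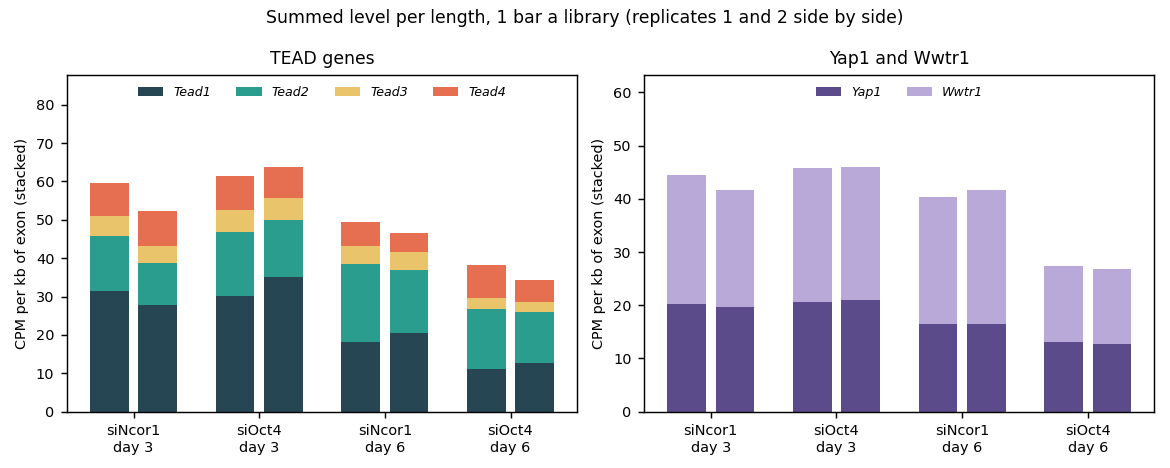
Level per length in CPM per kb of exon (y axis), stacked over the 4 TEAD genes (left) and over *Yap1* and *Wwtr1* (right), with 1 bar for each library and the 2 replicates of a group side by side (x axis). The dark *Tead1* part shrinks from about equal to the other 3 together at day 3 to 40.3% in *siNcor1* and 32.9% in *siOct4* at day 6, and both stacks are lowest in *siOct4* at day 6.

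The 4 target genes showed the widest range of the members. *Ctgf*, which encodes a secreted matricellular protein, was at 6.90 and 6.09 log2-cpm in *siNcor1* and 7.18 and 7.35 in *siOct4* at day 3, and at 4.20 and 3.92 in *siNcor1* and 1.77 and 2.13 in *siOct4* at day 6. In reads, its count in *siOct4* went from 2142 and 1288 at day 3 to 31 and 50 at day 6. The 4 groups did not overlap, with *siOct4* the highest at day 3 and the lowest at day 6. *Ankrd1*, an ankyrin repeat protein of muscle and wounded tissue, was at 5.44 and 4.78 in *siNcor1* and 5.90 and 6.20 in *siOct4* at day 3, and at 3.353 and 3.204 in *siNcor1* and 1.94 and 1.64 in *siOct4* at day 6. *Cyr61*, the close relative of *Ctgf*, was at 8.04 and 7.78 in *siNcor1* and 8.19 and 8.25 in *siOct4* at day 3, and at 6.62 and 6.71 in *siNcor1* and 5.47 and 5.53 in *siOct4* at day 6. The same order of the 4 groups, from *siOct4* at day 3 down to *siOct4* at day 6, thus held in *Ctgf*, *Ankrd1* and *Cyr61* without overlap between libraries. Over time, libraries did not overlap in 73.1% of all tested genes in *siNcor1* and in 74.8% in *siOct4*, and in 64.7% between the knockdowns at day 6. *Amotl2*, a junctional angiomotin that binds YAP and restrains it, was at 7.63 and 7.53 in *siNcor1* and 7.77 and 7.97 in *siOct4* at day 3, and at 6.76 and 6.72 in *siNcor1* and 5.61 and 5.46 in *siOct4* at day 6, in the same order.

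At day 3 all 4 targets had higher means in *siOct4* than in *siNcor1*, and none of the differences was called. The log2 difference was 0.94 for *Ankrd1* (95% interval 0.46 to 1.42, limma adjusted p = 0.0685) and 0.77 for *Ctgf* (0.27 to 1.27, adjusted p = 0.176). For *Cyr61* it was 0.31 (0.047 to 0.58, limma adjusted p = 0.334) and for *Amotl2* 0.29 (0.029 to 0.55, adjusted p = 0.388). The libraries of both knockdowns did not overlap at day 3 in any of the 4 targets, as in 43.4% of all tested genes. The pair of *siNcor1* libraries at day 3 lay apart by more than the other pairs in *Ctgf* and *Ankrd1*, with replicate 1 at 119 CPM and replicate 2 at 68.0 CPM of *Ctgf*. Without *siNcor1* replicate 1 the difference of *Ctgf* at day 3 was 1.18, and without replicate 2 it was 0.37.

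At day 6 all 4 targets were lower in *siOct4*. *Ctgf* was 4.32-fold lower (log2 difference −2.11, SE 0.23, limma adjusted p = 2.9e-04) and *Ankrd1* was 2.81-fold lower (−1.49, SE 0.22, adjusted p = 8.3e-04). *Amotl2* was 2.31-fold lower (−1.21, SE 0.12, limma adjusted p = 2.0e-04) and *Cyr61* was 2.24-fold lower (−1.16, SE 0.12, adjusted p = 2.5e-04). The change of this difference from day 3 to day 6 was called in each, at −2.88 for *Ctgf* (SE 0.32, limma adjusted p = 6.1e-04), −2.43 for *Ankrd1* (SE 0.31, adjusted p = 7.6e-04), −1.50 for *Amotl2* (SE 0.17, adjusted p = 6.1e-04) and −1.47 for *Cyr61* (SE 0.17, adjusted p = 6.3e-04).

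Over time all 4 targets fell in both knockdowns. In *siOct4*, *Ctgf* was 39.8-fold lower at day 6 than at day 3 (log2 difference −5.32, SE 0.23, limma adjusted p = 4.6e-08), which was the most negative difference of all 13866 tested genes. It stayed the most negative under each alternative run except voom, where it held place 5. *Ankrd1* was 19.2-fold lower (−4.26, SE 0.22, limma adjusted p = 1.4e-07). *Cyr61* was 6.59-fold lower (−2.72, SE 0.12, limma adjusted p = 5.9e-08) and *Amotl2* 5.06-fold lower (−2.34, SE 0.12, adjusted p = 1.4e-07). In *siNcor1* the same genes fell to a smaller extent, with *Ctgf* 5.39-fold lower (−2.43, SE 0.23, limma adjusted p = 3.3e-05), *Ankrd1* 3.56-fold lower (−1.83, SE 0.22, adjusted p = 1.3e-04), *Cyr61* 2.37-fold lower (−1.25, SE 0.12, adjusted p = 4.2e-05) and *Amotl2* 1.79-fold lower (−0.84, SE 0.12, adjusted p = 4.3e-04). The gap between the falls of *siOct4* and *siNcor1* is the same quantity as this change. All calls of the 4 targets at day 6, over time and between the falls were kept when any 1 of the 8 libraries was left out.

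**Figure D3:**
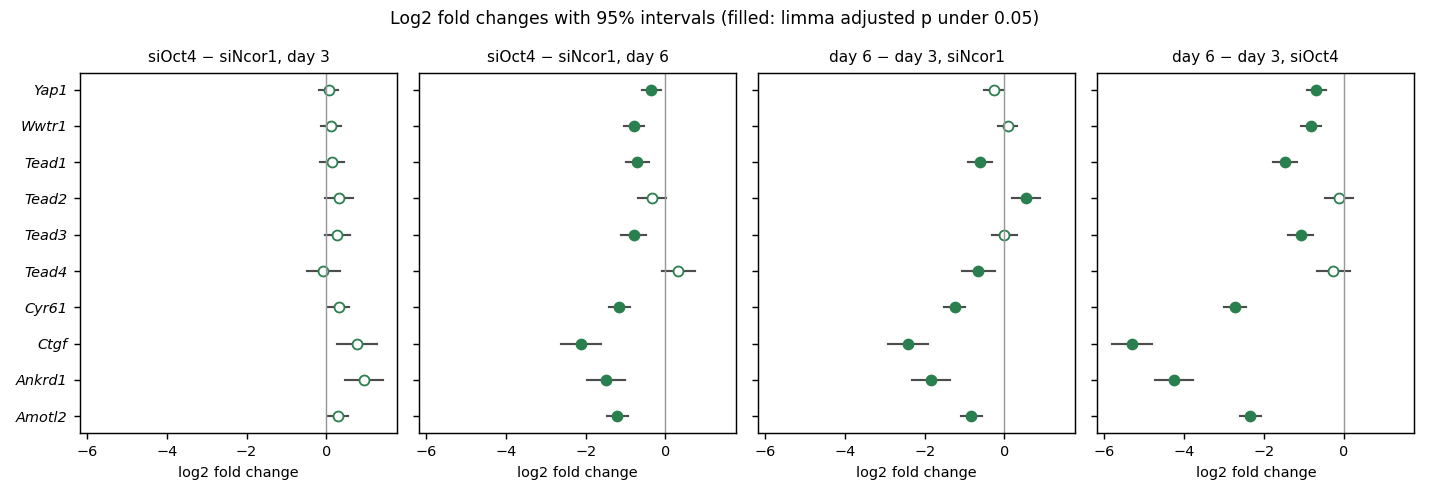
Log2 fold change (x axis) of each member (y axis) in 4 comparisons, with 95% intervals from limma as lines and filled points where the adjusted p was under 0.05. The panel of *siOct4* against *siNcor1* at day 3 holds no filled point, and the largest falls are those of *Ctgf* (−5.32) and *Ankrd1* (−4.26) over time in *siOct4*.

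Per kilobase of exon, *Cyr61* had the highest level of the 10 members in all 4 groups, with means of 120 CPM per kb in *siNcor1* and 148 in *siOct4* at day 3, and of 50.1 and 22.4 at day 6. The places below it changed between the days. In *siOct4* at day 3, *Ctgf* came next at 53.8 CPM per kb, and *Amotl2* (37.3) and *Tead1* (32.7) followed with overlapping libraries, while *Tead3* was lowest at 5.65. In *siOct4* at day 6, *Tead2* (14.6) and *Wwtr1* (14.2) came next with overlapping libraries, and *Ctgf* (1.31) and *Ankrd1* (1.16) were the lowest, also with overlapping libraries. In *siNcor1* at day 3, *Ctgf* (32.7), *Amotl2* (30.4) and *Tead1* (29.6) overlapped below *Cyr61*, and at day 6 *Wwtr1* (24.5) came next and *Ankrd1* was lowest at 3.32.

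The kinases LATS and MST and their partners form the core of the Hippo pathway upstream of YAP and TAZ. Of 11 genes of the kinases and their adaptors (*Stk3*, *Stk4*, *Sav1*, *Lats1*, *Lats2*, the MOB1, TAO and MAP4K4 genes), 0 were called between the knockdowns at day 3, and 5 were lower and 0 higher in *siOct4* at day 6, where 18.6% of all tested genes were lower. That count was 2 without the variance trend, and 3 with centring on the median, quantile normalization or no filter on low values. The median log2 difference at day 6 was −0.33, against −0.79 for the members. *Lats2*, a kinase gene that is itself a YAP target, had the largest difference of this list at day 6 (−0.80, SE 0.17, limma adjusted p = 0.00450), from 4.19 and 4.16 log2-cpm in *siNcor1* to 3.35 and 3.39 in *siOct4*. *Taok3* followed at −0.51 and *Lats1* at −0.47 (limma adjusted p = 0.0100 and 0.0154). Over time, 5 of the 11 fell in *siNcor1* and 8 in *siOct4*, and 0 rose in either, beside 20.9% and 30.5% of all tested genes that fell. The largest falls in *siNcor1* were those of *Lats1* (−0.74), *Taok1* (−0.64) and the scaffold gene *Sav1* (−0.51), and in *siOct4* those of *Lats2* (−1.36), *Lats1* (−1.24) and *Taok1* (−0.90). The change over time differed between the knockdowns for *Lats2* (−1.03, limma adjusted p = 0.0111) and *Taok3* (−0.57, adjusted p = 0.0386).

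Among 13 upstream and junctional regulators, 0 were called at day 3, and 7 were lower and 0 higher in *siOct4* at day 6 (18.6% of all tested genes were lower). *Fat4*, a giant protocadherin that acts at the top of the pathway, was at 6.63 and 6.56 log2-cpm in *siNcor1* and at 4.51 and 5.01 in *siOct4* at day 6 (log2 difference −1.83, SE 0.20, limma adjusted p = 2.9e-04). The angiomotin gene *Amot* differed by −1.28 (SE 0.15, limma adjusted p = 3.8e-04) and *Fat1* by −0.86 (SE 0.16, adjusted p = 0.00239) at day 6. In *siOct4*, all 13 were called over time, 10 lower and 3 higher, where 30.5% of all tested genes fell and 22.2% rose. The falls were led by *Fat4* (−2.50), *Amot* (−1.83) and *Fat1* (−1.72). The 3 that rose were *Dchs1* (0.66), the ligand of FAT4, and the LATS activators *Wwc1* (0.41) and *Nf2* (0.30). In *siNcor1*, 5 were lower at day 6 than at day 3 (20.9% of all tested genes were), led by *Wwc2* (−0.81), *Ajuba* (−0.71) and *Fat4* (−0.56), and *Dchs1* alone was higher (0.95, limma adjusted p = 2.0e-04). *Nf2*, the tumour suppressor merlin, was the only gene of these lists whose change over time was called more positive in *siOct4* than in *siNcor1* (0.59, SE 0.17, limma adjusted p = 0.0277). The change was called more negative in 6 of the 13. Among all tested genes, 12.9% were called more negative and 7.77% more positive.

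VGLL proteins compete with YAP and TAZ for TEAD. *Vgll3* and *Vgll4* could be tested, *Vgll1* was under the filter, and *Vgll2* was not analysed here. *Vgll3* was at 6.85 and 6.75 log2-cpm in *siNcor1* and 6.95 and 6.94 in *siOct4* at day 3, and at 5.80 and 6.05 in *siNcor1* and 4.87 and 4.88 in *siOct4* at day 6. It was 2.07-fold lower in *siOct4* at day 6 (log2 difference −1.05, SE 0.12, limma adjusted p = 3.6e-04), and it fell over time by 0.88 in *siNcor1* and by 2.07 in *siOct4* on the log2 scale. *Vgll4* fell by 0.50 in *siOct4* (SE 0.14, limma adjusted p = 0.0116), which was not called with quantile normalization or with totals without *Gm26917*.

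A further 18 genes known as targets of YAP and TAZ in other cells, with *Lats2* and *Ptpn14* also in the lists above, gave a mixed picture in *siNcor1* and lower levels in *siOct4*. At day 3, 0 of 18 were called, with a median log2 difference of 0.22. At day 6, 12 were lower in *siOct4* and 0 higher, against 18.6% and 12.1% of all tested genes, with a median of −0.75. The largest differences were those of *Rbms3* (−1.35, SE 0.16), *Igfbp3* (−1.34, SE 0.15) and *F3*, the tissue factor gene (−1.26, SE 0.21), with limma adjusted p-values of 3.8e-04, 3.1e-04 and 0.00162. In *siOct4*, 12 fell over time and 1 rose (30.5% and 22.2% of all tested genes), led by *F3* (−2.27), *Ccdc80* (−2.25) and *Rbms3* (−2.19), while *Gadd45a* rose by 0.78. In *siNcor1*, 8 fell and 4 rose, beside 20.9% and 13.8% of all tested genes. *Igfbp3*, a secreted binding protein of insulin-like growth factors, rose from 5.17 and 5.11 to 7.08 and 6.82 log2-cpm there (log2 difference 1.81, SE 0.15, limma adjusted p = 1.8e-05). *Nt5e* (1.23) and *Fjx1* (0.96) also rose, and *Crim1* (−1.17), *Dock5* (−1.14) and *Ccdc80* (−0.91) had the largest falls. The change over time was more negative in *siOct4* for 11 of the 18 (12.9% of all tested genes), led by *Igfbp3* (−1.70), *Rbms3* (−1.61) and *F3* (−1.37), and more positive for 0.

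**Figure D4:**
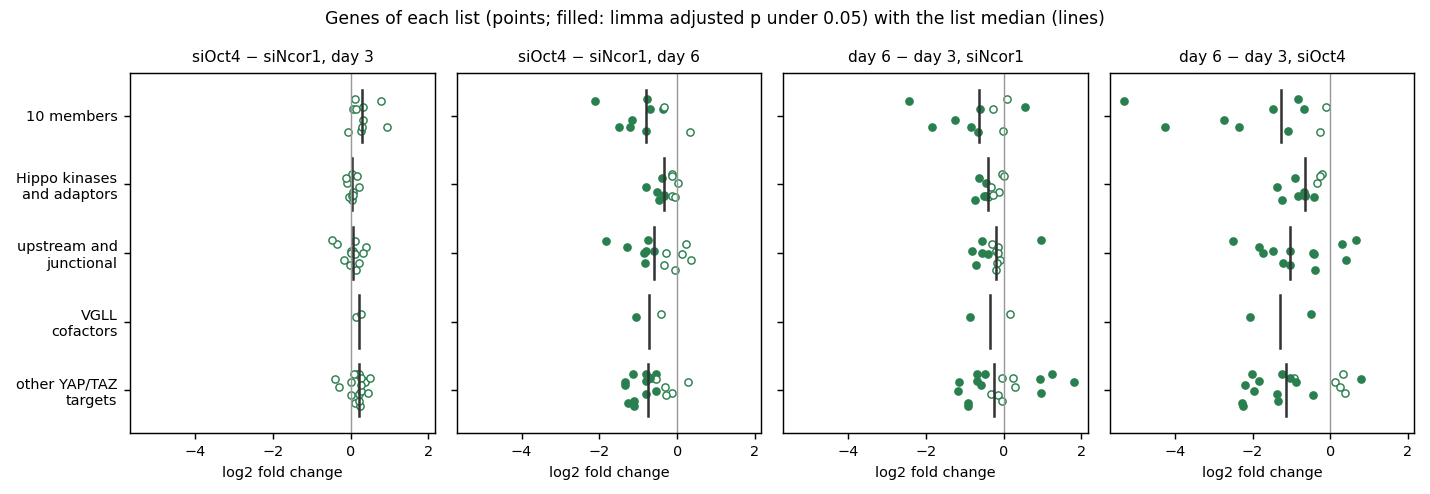
Log2 fold change (x axis) of each tested gene (points) of the 10 members and of 4 lists of Hippo pathway and target genes (y axis) in 4 comparisons, filled where the limma adjusted p was under 0.05, with a line at the median of each list. No point is filled at day 3, and the members reach further to the left than the other lists over time, down to −5.32 for *Ctgf* in *siOct4*, against −2.50 for *Fat4* as the lowest of the other genes.

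The genes whose pattern over the 8 libraries was most like that of a member were found by the root mean square difference of log2-cpm after each gene's own mean was subtracted. For *Ankrd1* the 3 nearest of the tested genes were *Acta2* (0.16), *Cnn1* (0.17) and *Lmod1* (0.18), which encode contractile or actin-binding proteins of smooth muscle. For *Ctgf* they included *Acta2* (0.39) and *Ptx3* (0.44). *Cyr61* was nearest to *Cyp1b1* (0.10), *Cxcl12* (0.10) and *Vcl* (0.11), the last the gene of the focal adhesion protein vinculin, and *Amotl2* was nearest to *Kif26b* (0.099), *Ccdc80* (0.12) and *Nhs* (0.13). For *Yap1* the nearest gene was *Map4k4* (0.017), a kinase gene of the Hippo list above, followed by *Nisch* and *Stau1* (both 0.039). The nearest genes were *Zswim8*, *Zcchc24* and *Lix1l* for *Wwtr1* (0.051 to 0.052), *Frs2*, *Sptbn1* and *Daam1* for *Tead1* (0.066 to 0.070) and *Ttyh3*, *Selenon* and *H6pd* for *Tead3* (0.056 to 0.067). They included *Aes* and *Azin2* for *Tead2* (0.082 and 0.087), and were *Bend4*, *Abhd17c* and *Troap* for *Tead4* (0.090 to 0.105). Genes with small changes over the libraries have small distances to many others, so distances are not comparable between members.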

How the data were processed

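RNA-seq of ribosome-depleted total RNA (200 ng per library) was deposited for 8 libraries as a table of log2-cpm per gene. The authors aligned the reads to mm10 (GRCm38) with STAR 2.5.2b and computed the deposited log2 values with edgeR 3.20.9, per the submitters' processing notes. The counting tool and its strand setting are not given in the sources used here. After a constant of 0.136 CPM was subtracted, all values (100%) came out as whole reads within 0.1 read, which gave the read total of each library. The value of 3 reads covers counting error only, while the 95% intervals rest on the spread between libraries.

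Genes whose mean over the libraries reached 1 CPM (13866 of 18990) were fitted with limma 3.58.1 in R 4.3.3 (lmFit, eBayes with a variance trend, the 4 groups together), with Benjamini-Hochberg adjustment over all of them at 0.05. Fold changes are on the scale of the deposited values, constant included. Levels per length used the exon union of GENCODE M21, to which 18969 genes were matched. The fit was tested on simulated reads with known changes. The members and the gene lists were chosen with earlier results of these data known. Named were all members, up to 3 called genes per list, comparison and direction, and the 3 nearest genes of each member, of which 1 for *Ctgf* and 1 for *Tead2* are not reported here. Alternatives were other scalings, filters, pseudocounts and variance models, a replicate block, the compared groups alone, and each library left out.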

Additional observations from a re-analysis of the deposited data

Results flagged for a closer look

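The groups hold 2 libraries each, so no library was tested for standing apart from its group. The difference between *siOct4* and *siNcor1* changed between day 3 and day 6 by the test of that change itself (limma, adjusted p under 0.05) in 7 members. Of all tested genes, 12.9% had a called negative change and 7.77% a called positive change. Of the 10 fibroblast markers, 8 had a called negative change and 0 a called positive change. The change was −2.88 for *Ctgf*, −2.43 for *Ankrd1*, −1.50 for *Amotl2*, −1.47 for *Cyr61*, −1.07 for *Tead3*, −0.90 for *Wwtr1* and −0.84 for *Tead1*, on the log2 scale. In each of these 7, *siOct4* had the higher mean on day 3 and the lower mean on day 6. A negative change by itself favours these signs. *Yap1* and *Tead2*, whose change was not called, had them too, and *Tead4* had the opposite signs. The day 3 differences themselves were not called, and the *Tead1* change was not called in 3 of the 8 fits that left out 1 library.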

How the results depend on the processing

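Of 990 values of members under alternatives, 947 kept their direction and their side of the threshold, 17 lost and 16 gained a call, and 10 changed sign, none of them called. At day 3 the number of members called was 0, and it was 1 (*Ankrd1*) with voom, with the replicate block and with only the groups compared; with 1 library left out it ranged from 0 to 1. The sign changes were *Tead4* at day 3 (0.0051 without *siOct4* day 3 replicate 2, down to −0.16 without replicate 1), *Tead3* over time in *siNcor1* (0.032 with median centring, 0.068 with quantile normalization, 0.066 with totals without *Gm26917*, 0.13 without *siNcor1* day 3 replicate 1, 0.018 without day 6 replicate 2, down to −0.15 without day 3 replicate 2), and *Tead2* over time in *siOct4* (0.14 with quantile normalization, 0.021 with totals without *Gm26917*, 0.0099 without *siOct4* day 6 replicate 2, down to −0.24 without replicate 1), where *Tead4* was 0.027 and −0.54 without the same libraries. The cause was not tested. Counts of members called ranged over all alternatives from 6 to 9 at day 6, 5 to 8 over time in *siNcor1*, 8 to 9 in *siOct4* and 6 to 8 for the change between days. Totals without *Gm26917* shifted the median of all genes by 0.13 (log2) over time in *siOct4*. The labels number the replicates 1 and 2 in every group, but deviations of same-numbered libraries correlated between −0.040 and 0.28 and no source ties the numbers to a shared batch; with the number as a replicate block, 1, 9, 7, 8 and 8 members were called in the comparisons at day 3, at day 6, over time in *siNcor1*, over time in *siOct4* and for the change between days. Under the block *Tead2* was called lower in *siOct4* at day 6 (adjusted p = 0.0439) and for the change between days (0.0147), and *Ankrd1* was called at day 3. Of the Hippo kinase genes, the 5 that fell in *siNcor1* were 3 with quantile normalization, and the 2 with a change between days were 1 with median centring, quantile normalization, totals without *Gm26917* or no variance trend. The precision of each mean rests on 2 libraries, and the lowest read number of any member was 31. Set against counting noise, the replicates differed most in *siOct4* at day 6, with a chi-square per degree of freedom of 18.7. In the other groups it was between 8.44 and 9.43. The fit shares its estimate of the spread between the 4 groups. With only the day 3 groups in the fit, 212 genes were called at day 3, among them *Ankrd1*, beside 148 in the main fit. What brought this difference about was not tested.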
